A study of Mus musculus with 12 samples.

Results

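The 9 genes described here, Drd1, Drd2, Adora2a, Adcy5, Pde10a, Rgs9, Ppp1r1b, Penk and Tac1, encode receptors, intracellular signalling proteins and neuropeptides of the dopamine-receptive projection neurons of the striatum. They were chosen by gene symbol, each symbol matched 1 row, and they are 9 of the 55335 genes in the deposited tables. All 9 were measured by single-nucleus RNA sequencing of the cortex of MYT1L WT and MYT1L Het mice at postnatal day 21 (P21). MYT1L Het mice carry 1 copy of the frameshift allele MYT1L S710fsX, and WT mice are of the same line without it. There were 6 WT and 6 Het animals, with 3 males and 3 females of each genotype, and nuclei were barcoded by the combinatorial chemistry of Scale Biosciences, in which the first barcode names the animal and nuclei of all animals are then pooled. The animals of both genotypes were the study's Calling Cards cohort, in which AAV constructs were injected into the ventricles shortly after birth, so that the WT controls carry them too. The labels name the tissue as cortex, and the study's methods also call it prefrontal cortex.

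After filtering, 33116 nuclei were analysed, 14344 from WT and 18772 from Het animals. An animal contributed between 1551 and 3182 nuclei in WT and between 2010 and 4414 in Het. The median nucleus held 3018 to 3289.5 unique molecular identifiers (UMIs) in the WT animals and 2973.5 to 3398 in the Het animals. No barcode was shared between animals. Levels are given as counts per 1000000 UMIs (CPM), computed from the counts summed over the nuclei of 1 animal. Myt1l was at 830 to 946 CPM in WT (median 893) and 927 to 1008 CPM in Het (median 993), with a log2 fold change of 0.14 ± 0.05 (SE, adjusted p = 0.677, edgeR). Counts do not tell the frameshift allele from the intact one, so this level does not check the labels.

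Striatal projection neurons are inhibitory neurons that receive dopamine from the midbrain and fall into a pair of intermingled types. Direct-pathway neurons carry the D1 receptor, which raises cyclic AMP, and release substance P, whereas indirect-pathway neurons carry the D2 receptor, which lowers cyclic AMP, together with a stimulatory adenosine receptor and enkephalin. Cyclic AMP activates protein kinase A, and DARPP-32 is a target of that kinase which then inhibits protein phosphatase 1. Within the cortex, single members of this set are also known from other cells, such as D1 receptors in deep-layer excitatory neurons and substance P or enkephalin in subsets of interneurons.

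The members lie on 8 chromosomes of mm10. Among the receptors, Drd1 (dopamine D1 receptor, ENSMUSG00000021478.6) is at chr13:54051183-54055705 on the minus strand, Drd2 (dopamine D2 receptor, ENSMUSG00000032259.8) is at chr9:49340627-49408177 on the plus strand, and Adora2a (the striatal adenosine receptor, ENSMUSG00000020178.6) is at chr10:75316877-75334784 on the plus strand. Of the signalling proteins, Adcy5 (adenylyl cyclase 5, ENSMUSG00000022840.9) is at chr16:35154877-35305738 and Pde10a (a cyclic nucleotide phosphodiesterase, ENSMUSG00000023868.17) at chr17:8525372-8986648, both on the plus strand. Rgs9 (a GTPase activator that shortens G protein signals, ENSMUSG00000020599.13) is at chr11:109225355-109298129 on the minus strand, and Ppp1r1b (DARPP-32, ENSMUSG00000061718.12) is at chr11:98348404-98357796 on the plus strand. The neuropeptide precursors are Penk (preproenkephalin, ENSMUSG00000045573.9) at chr4:4133531-4138819 on the minus strand and Tac1 (the precursor of substance P, ENSMUSG00000061762.12) at chr6:7554879-7565834 on the plus strand.

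Since dopamine receptors act through cyclic AMP, the 250 bases upstream of each RefSeq start site were searched for the core of the cyclic AMP response element, TGACG, and for its reverse complement CGTCA on the printed strand. RefSeq promoters (GRCm38.p6) were at hand for 6 of the 9 members, Drd1, Drd2, Pde10a, Rgs9, Tac1 and Adcy5, and Drd1 and Pde10a each had a pair of them. Of these 8 promoters, 1 held this core, against 17.8% of 32851 promoters of all genes (5836 of them). The Tac1 promoter, chr6:7554811-7555060 on the plus strand, held it 2 times, both marked in capitals. The promoter of Drd2, chr9:49340153-49340402 on the plus strand, is shown beside it as an example of a member with none. A match of these letters is a description of the sequence and not a binding site.

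Tac1: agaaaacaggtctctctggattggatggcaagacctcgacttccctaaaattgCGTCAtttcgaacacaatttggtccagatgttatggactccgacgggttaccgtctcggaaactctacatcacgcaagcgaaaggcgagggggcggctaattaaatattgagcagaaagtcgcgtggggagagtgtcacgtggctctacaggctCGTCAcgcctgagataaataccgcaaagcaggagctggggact

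Drd2: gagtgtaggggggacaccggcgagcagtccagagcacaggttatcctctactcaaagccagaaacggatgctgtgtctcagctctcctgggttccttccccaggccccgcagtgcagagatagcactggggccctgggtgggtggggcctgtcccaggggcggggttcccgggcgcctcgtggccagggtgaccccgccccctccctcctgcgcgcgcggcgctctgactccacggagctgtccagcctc

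The cell types in which the members were present were described first. Nuclei were clustered without the 9 members, and 20 cell types were named from marker genes, of which 18 had at least 10 nuclei in at least 6 animals. Clusters holding 42.8% of the nuclei stayed unnamed. Each of the 9 members had its highest mean level, among the 18 cell types, in the striatal projection neuron-like nuclei (1450 nuclei in 4 clusters, hereafter striatal clusters). The clusters had been named from 10 striatal markers outside the members, so the levels of these are a description. Of them 6, with Rarb, Pde7b, Rasd2, Gng7 and Pde1b among these, were also highest there, and the striatal clusters ranked 2 for Six3 and Foxp1, 3 for Meis2 and 4 for Ano3. These are levels over animals of both genotypes, without a test.

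Among the receptors, Drd2 in the striatal clusters lay between 192 and 346 CPM in the 12 animals, with a mean of 274 ± 45.1 (SD, n = 12). The next cell type, Sst-like interneurons, had 9.94 ± 4.75 CPM (n = 12), so that the 2 sets of animals did not overlap. Adora2a reached 51.9 ± 14.2 CPM (n = 12) in the striatal clusters and at most 3.29 CPM on average in the other 17 of the 18 cell types, although 1 astrocyte-like value (29.6 CPM, from 1 count) lay above the lowest striatal value (28.8 CPM). The striatal clusters were higher than the astrocyte-like nuclei in 8 of 9 animals. Drd1 had a broader distribution, with 46.1 ± 14.6 CPM (n = 12) in the striatal clusters and 36.4 ± 19.2 CPM (n = 11) in STR-PAL Chst9-like nuclei, a GABAergic type of the striatum and pallidum. The striatal clusters had more Drd1 than the Chst9-like nuclei in 8 of 11 animals, and the ranges overlapped. Deep-layer excitatory nuclei also held Drd1, with 16.0 ± 10.9 CPM in L6 IT-like, 5.98 ± 4.16 CPM in L5 NP-like and 4.56 CPM in L6 CT-like nuclei. The L6 IT-like and L5 NP-like values rest on 19 counts each. Sst-like (4.17 ± 3.49 CPM) and Pvalb-like interneurons (3.75 ± 2.79 CPM) were near the L6 CT-like nuclei for Drd1.

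The signalling proteins differed in how far they extended beyond the striatal clusters. Rgs9 was at 1009 ± 185 CPM (n = 12) there, at 347 ± 89.1 CPM (n = 11) in Chst9-like nuclei and at 89.0 ± 27.1 CPM (n = 12) in Sst-like interneurons, with no overlap between neighbours in this order. Adcy5 was at 571 ± 92.0 CPM in the striatal clusters, and fibroblast-like nuclei (235 ± 69.6, n = 7), Chst9-like nuclei (232 ± 81.4, n = 11) and oligodendrocyte-like nuclei (84.9 ± 31.2, n = 12) followed. Fibroblast-like and Chst9-like nuclei were not ordered beyond their spread for Adcy5, since the former were higher in 2 of 6 animals. Pde10a was present in all 18 types, from 34.8 CPM in new oligodendrocyte-like nuclei to 3486 ± 619 CPM in the striatal clusters. Vip-like (1695 ± 337), L5 IT-like (1681 ± 304) and Pvalb-like nuclei (1510 ± 172) came next for Pde10a and overlapped with one another, but none of the Vip-like values reached the lowest striatal value of 2693 CPM. Ppp1r1b was at 43.5 ± 10.4 CPM in the striatal clusters and 11.8 ± 12.8 CPM (n = 11) in Chst9-like nuclei, higher in the former in 11 of 11 animals. L6 CT-like nuclei, where cortical DARPP-32 is known in mice, had 2.67 ± 2.23 CPM of Ppp1r1b, which rests on 36 counts in 3749 nuclei. Among the other excitatory types, L2/3 IT-like (2.05 ± 1.72 CPM) and L6 IT-like nuclei (3.08 ± 6.30 CPM, from 4 counts) were near that level. L5 NP-like (1.30 CPM), DG-like (0.191 CPM) and L5 IT-like nuclei (0 CPM) were lower.

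The peptides were also present in several other cell types. Penk was at 75.6 ± 28.9 CPM (n = 12) in the striatal clusters, at 60.4 ± 43.4 (n = 7) in fibroblast-like nuclei, at 48.8 ± 40.2 (n = 11) in Chst9-like nuclei and at 21.4 ± 14.8 (n = 12) in Vip-like interneurons. For Penk, the striatal clusters exceeded the fibroblast-like nuclei in 4 of 7 animals, so the first place was within the spread. Tac1 was at 41.3 ± 8.90 CPM in the striatal clusters, at 39.6 ± 26.9 in Chst9-like nuclei, with 6 of 11 animals higher in the former, and at 26.7 ± 9.03 in Pvalb-like interneurons. Over the 18 cell types, the profile of Rgs9 was the most like the mean of the other 8 members (Pearson r = 0.817) and that of Pde10a the least (r = 0.381). Outside the members, the genes with the most similar profiles were Isl1 (r = 0.946), Ric8b (0.928), Tomm70a (0.878), Scn4b (0.872) and Mhrt (0.858) among 13856 genes, as a description over 18 cell types from the same animals. Ric8b is a chaperone of the olfactory-type stimulatory G protein subunit, Scn4b is a sodium channel beta subunit and Isl1 is a transcription factor of direct-pathway neurons.

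**Figure D1:**
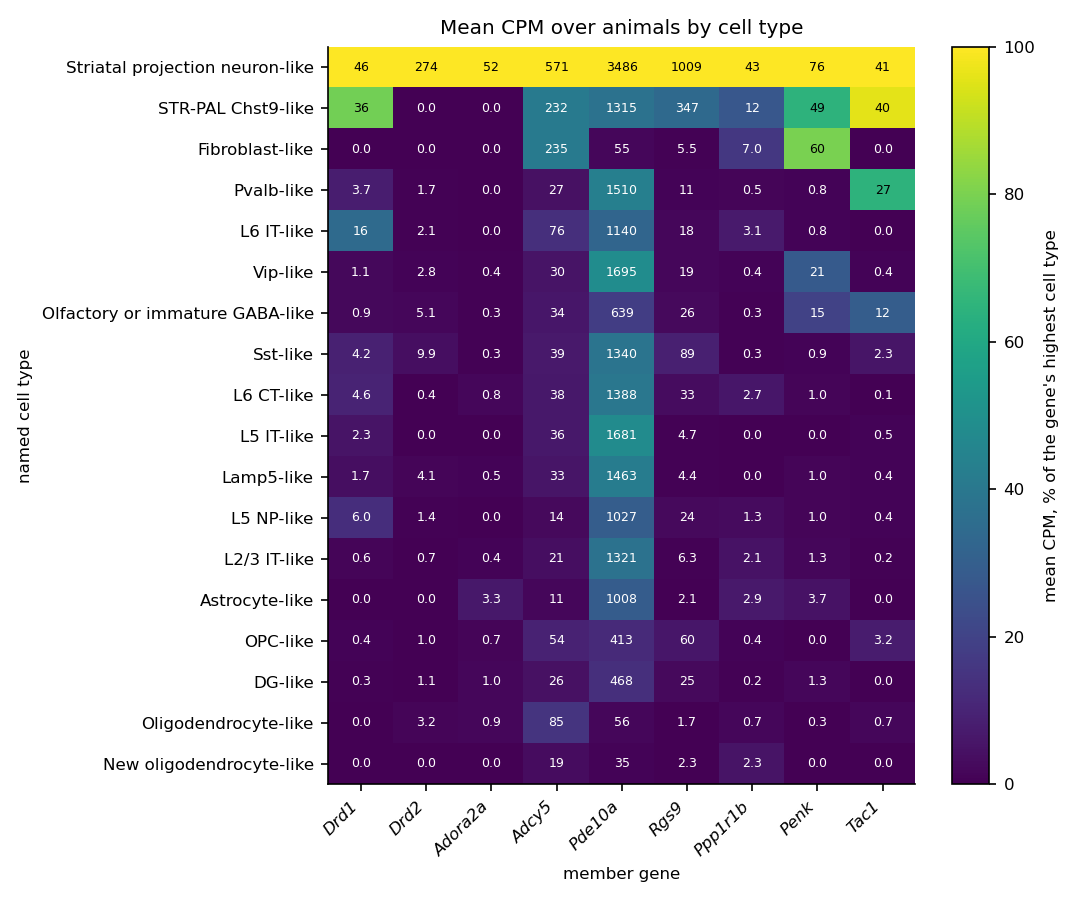
Mean CPM over animals (numbers in the cells) of the 9 members (columns) in 18 named cell types (rows), coloured as a percentage of each gene's highest cell type on a linear scale. The top row, striatal projection neuron-like nuclei, is the highest for every member, and Pde10a is also high in most neuronal types.

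Within the striatal clusters, the receptors and peptides divided into a D1 and a D2 pattern, although none of them had been used for the clustering. Cluster 34 (535 nuclei) had 717 CPM of Drd2, 137 of Adora2a and 172 of Penk, with 1.80 CPM of Drd1, and a Drd2 UMI was found in 84.9% of its nuclei. Cluster 35 (528 nuclei) had 85.9 CPM of Drd1 and 74.1 of Tac1, with 2.96 CPM of Drd2. Cluster 48 (213 nuclei) also carried Drd1 (112 CPM) and Tac1 (87.6 CPM), had Drd3, the dopamine D3 receptor gene, among its leading genes, and took 34.3% of its nuclei from 1 animal. Cluster 52 (174 nuclei) was of the D2 pattern at lower levels, with 145 CPM of Drd2, 56.0 of Adora2a and 93.3 of Penk. The shared members were lowest in cluster 52 as well: Ppp1r1b had 12.4 CPM there against 54.1, 46.0 and 48.3 CPM in clusters 34, 35 and 48, and Adcy5 had 224 CPM against 642, 706 and 430 CPM. Pde10a (1037 CPM) in cluster 52 was below Vip-like nuclei (1728 CPM), and Rgs9 (296 CPM) was below Chst9-like nuclei (362 CPM). Chst9-like nuclei had 11.7 CPM of Ppp1r1b and 229 CPM of Adcy5, near the values of cluster 52. Of the nuclei in cluster 52, 13.2% passed the gate defined below. Its name rests on the 10 markers, and its levels of the shared members set it apart from the other striatal clusters. All these values are pooled over animals and carry no test.

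**Figure D2:**
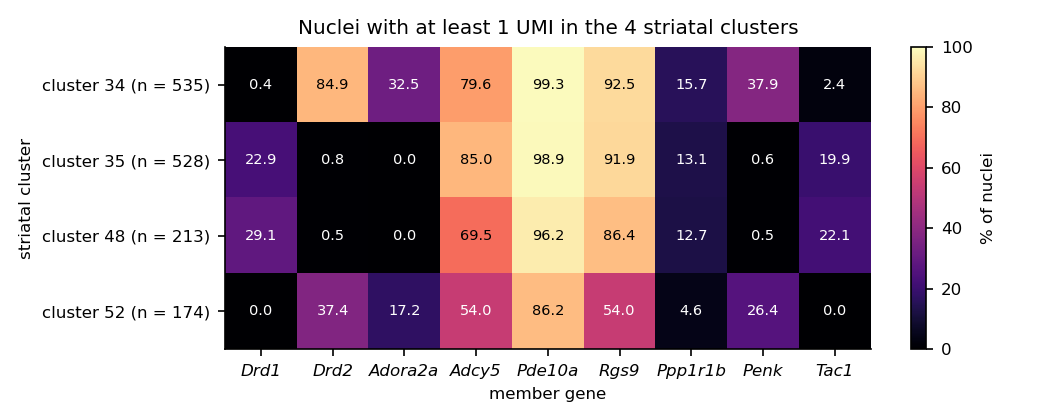
Percentage of nuclei with at least 1 UMI (colour and numbers) of each member (columns) in the 4 striatal clusters (rows, with the number of nuclei). Drd2, Adora2a and Penk are detected in clusters 34 and 52, Drd1 and Tac1 in clusters 35 and 48, and Adcy5, Pde10a and Rgs9 in over 50% of the nuclei of each cluster.

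A second definition used 2 of the members. Striatal-type nuclei were those with at least 2 UMIs of Rgs9, at least 4 of Pde10a and at least 1 of Gad1 and Gad2 together, the enzymes that make GABA. The gate held 775 nuclei, 2.34% of all nuclei and 2.48% of all UMIs. Of them, 657 (84.8%) lay in the striatal clusters, 58 in Chst9-like and 45 in Sst-like clusters, and the rest in other or unnamed ones. It passed 45.3% of the nuclei in the striatal clusters. Just inside the gate (Rgs9 below 3 or Pde10a below 5) were 214 nuclei, of which 67.3% lay in the striatal clusters and 25.2% had a Drd2 UMI. Of 333 nuclei that narrowly failed on Rgs9 the values were 37.2% and 13.8%, and of 388 nuclei that failed on Gad1 and Gad2 alone they were 76.0% and 30.2%. Thus many nuclei of the striatal clusters lay outside the gate.

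The 7 members not used by the gate were higher inside it than outside in 12 of 12 animals. The ratio of the mean levels was 32.7 for Drd2 (262 ± 82.0 against 8.02 ± 1.90 CPM, n = 12), 30.4 for Adora2a (8.45 to 74.7 CPM inside, 0.664 to 2.63 CPM outside) and 11.5 for Drd1 (45.2 ± 19.8 against 3.92 ± 1.36 CPM). It was 12.3 for Adcy5, 17.2 for Ppp1r1b, 19.2 for Penk and 16.5 for Tac1. For Rgs9 and Pde10a, which define the gate, the ratios were 32.4 and 3.14 as a description only. A Drd2 UMI was found in 35.1% of nuclei inside the gate, in 1.47% outside it and in 0.711% of oligodendrocyte-like nuclei, which should lack the gene, at median depths of 3450, 3156 and 2479 UMIs. After thinning each nucleus to 1500 UMIs, the Drd2 shares were 24.5%, 0.943% and 0.498%. Adora2a (14.5% inside, 0.464% outside, 0.213% in oligodendrocyte-like nuclei), Ppp1r1b (13.5%, 0.770% and 0.213%), Tac1 (13.9%, 0.906% and 0.213%) and Penk (18.3%, 1.13% and 0.0711%) had the same order of shares. Drd1 was detected in 12.6% of nuclei inside and 1.27% outside the gate, and in 0 of 1406 oligodendrocyte-like nuclei, which allows a share of up to 0.213% from counting error alone. Adcy5 was detected in 79.7% inside and 12.3% outside, with 20.3% in oligodendrocyte-like, 11.4% in L6 CT-like and 1.23% in astrocyte-like nuclei, so its detection differed between types outside the gate.

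The gate accounted for part of each gene's counts in the tissue. Of all counts, the gated nuclei held 46.6% for Drd2, 45.5% for Adora2a, 44.9% for Rgs9, 33.7% for Penk, 31.1% for Ppp1r1b, 30.9% for Tac1, 24.5% for Adcy5, 21.6% for Drd1 and 7.35% for Pde10a. The striatal clusters, which are larger, held 82.6% of the Drd2 counts, 81.7% of Adora2a, 63.8% of Rgs9, 54.9% of both Ppp1r1b and Penk, 42.6% of Tac1, 40.0% of Adcy5, 39.6% of Drd1 and 11.3% of Pde10a. Drd2 and Adora2a were therefore measured mostly in striatal nuclei, whereas most Pde10a counts came from other nuclei.

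Receptor and peptide UMIs within single gated nuclei followed the same division. Drd2 and Drd1 UMIs were found together in 2 nuclei, whereas the product of their shares would give 34.4. Drd2 and Adora2a were found together in 100 nuclei (product 39.3), which is 89.3% of the nuclei with Adora2a, Drd2 and Penk in 113 (product 49.8), and Drd1 and Tac1 in 26 (product 13.7). Nuclei of 1 animal are not independent, so these counts are a description. When gated nuclei were divided by their UMIs, 160 had only Drd1 or Tac1 (D1-only), 289 had only Drd2, Adora2a or Penk (D2-only), 20 (2.58%) had both, and 306 (39.5%) had neither. Detection differed between the sides. A Drd2 UMI was found in 84.9% of the nuclei of cluster 34, but Drd1 in 22.9% and Tac1 in 19.9% of those of cluster 35. The D1-only and D2-only counts are therefore not the numbers of D1 and D2 neurons. Of 10 markers of either type that the division did not use, Chrm4 had 0 counts on both sides, which at this depth says nothing of its presence, and the other 9 had more CPM on the side they mark. Ebf1, a transcription factor of direct-pathway neurons, had 352 CPM in D1-only and 3.49 CPM in D2-only nuclei, higher in D1-only nuclei in 12 of 12 animals, and Gpr52, a receptor of indirect-pathway neurons, had 1.76 and 31.9 CPM, higher in D2-only nuclei in 12 of 12 animals. Pdyn, the dynorphin precursor, had 54.5 CPM in D1-only and 5.98 CPM in D2-only nuclei.

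The shared members were compared between both sides within animals. Only WT male 2, WT female 2 and every Het animal except Het male 1 had at least 10 nuclei on each side, so most were Het. In these 7 animals, Ppp1r1b ranged from 22.3 to 94.7 CPM in D1-only nuclei (median 49.4) and from 0 to 84.6 CPM in D2-only nuclei (median 49.9). These ranges overlapped, and the difference in log2(CPM + 10), D2-only minus D1-only, was -0.27 ± 0.28 (SE, n = 7; exact sign-flip permutation test, two-sided, p = 0.422, adjusted p = 0.422 over 2 genes). Adcy5 had 612 to 851 CPM (median 717) in D1-only and 506 to 945 CPM (median 630) in D2-only nuclei, a difference of -0.13 ± 0.12 (SE, n = 7; exact p = 0.344, adjusted p = 0.422). With 1 animal left out, the difference ran from -0.44 to -0.033 for Ppp1r1b, the latter without WT male 2, and from -0.21 to -0.071 for Adcy5. The smallest p that 7 animals allow is 0.0156. Neither gene differed beyond the spread between animals. Rgs9 had means of 1246 CPM in D1-only and 1366 CPM in D2-only nuclei, and Pde10a had 3601 and 4331 CPM, which are given without a test because both genes define the gate.

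The genotypes were compared next, beginning with the share of nuclei. Striatal-type nuclei made up 1.14% to 2.62% of the nuclei of a WT animal (median 1.59%) and 2.57% to 3.31% of those of a Het animal (median 2.86%). All 6 Het animals were above the WT median and 5 of 6 were above every WT animal, so the groups overlapped slightly. The mean share rose from 1.68% ± 0.530 in WT to 2.90% ± 0.240 in Het (SD, n = 6 each), a difference of 1.22 percentage points and a ratio of 1.72 (exact permutation test over 924 relabellings, two-sided, p = 0.00433, adjusted p = 0.0173 over 4 shares). The difference was 1.27 points in males and 1.16 points in females. Because the gate sets thresholds on Rgs9 and Pde10a, its share depends on their levels as well as on the number of nuclei. In the striatal clusters Rgs9 averaged 945 CPM in WT and 1073 CPM in Het, with overlapping ranges. Pde10a averaged 3264 and 3709 CPM there, also overlapping. The striatal clusters were formed without the members. For the striatal clusters the share was 2.29% to 4.83% in WT (median 3.12%) and 3.97% to 5.82% in Het (median 5.44%), again with 5 of 6 Het animals above every WT animal. The mean rose from 3.35% ± 1.08 to 5.26% ± 0.691, a difference of 1.92 points and a ratio of 1.57 (n = 6 each, exact permutation p = 0.00866, adjusted p = 0.0173). Thinned to 1500 UMIs per nucleus, the gate held 243 nuclei, and its mean share was 0.462% in WT and 0.969% in Het, a difference of 0.507 points (adjusted p = 0.00866, exact permutation test). The thinned gate used the same thresholds on Rgs9 and Pde10a, so its share too depends on their levels.

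**Figure D3:**
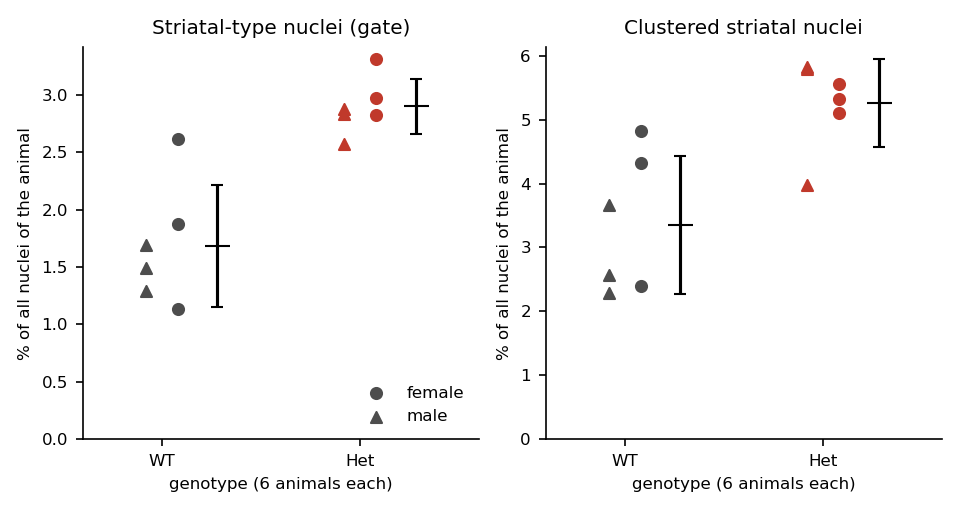
Share of an animal's nuclei (percent, linear axis from 0) that pass the striatal gate (left) or lie in the striatal clusters (right), by genotype. Points are animals (circles female, triangles male), and bars are the mean and SD of 6 animals. In both panels 5 of 6 Het animals lie above every WT animal.

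By cluster, the mean share went from 1.08% to 2.06% in cluster 34, from 1.36% to 1.86% in cluster 35, from 0.406% to 0.757% in cluster 48 and from 0.495% to 0.595% in cluster 52, without a test. The D2-only part of the D1-only and D2-only nuclei was 61.1% ± 14.2 in WT and 66.7% ± 8.78 in Het (n = 6 each), a difference of 5.63 points that the exact permutation test did not separate from the spread (p = 0.422, adjusted p = 0.563). It ran from 2.11 points without WT male 2 to 9.66 points without WT female 1, and was 0.437 points in the striatal clusters. Since Drd1 and Tac1 were detected less often than Drd2, 61.1% and 66.7% are not the shares of D2 neurons. L6 CT-like nuclei were 11.1% ± 1.55 of nuclei in WT and 11.4% ± 1.20 in Het, a difference of 0.320 points (exact permutation p = 0.708, adjusted p = 0.708) that was 2.52 points in males and -1.88 points in females.

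The shares of other cell types also varied, without a test. The mean share went from 0.962% in WT to 1.17% in Het for Chst9-like nuclei, from 0.0279% to 0.183% for ependymal-like nuclei, which line the ventricles and number 35 here with 42.9% from 1 animal, from 4.09% to 4.85% for oligodendrocyte-like nuclei, from 1.41% to 1.89% for OPC-like nuclei (oligodendrocyte precursors) and from 2.13% to 2.91% for DG-like nuclei of the hippocampus. Other mean shares were lower in Het, with all excitatory nuclei at 64.8% in WT and 61.9% in Het, Pvalb-like at 5.44% and 4.68%, Sst-like at 3.68% and 3.29% and L5 NP-like at 2.67% and 2.45%. In each of the last 3 types, 0 of 6 Het animals were above the WT median. In all nuclei, the 10 striatal projection neuron markers summed to 1520 to 1755 CPM in WT and 1658 to 1992 CPM in Het, a ratio of means of 1.10 (9 of 10 genes higher). The summed level of 6 ependymal markers was 20.9 to 35.1 CPM in WT and 18.6 to 72.5 CPM in Het, with 6 of 6 genes higher in Het and none at 0. For DG-like nuclei the 6 markers went the other way from the share, with 196 to 259 CPM in WT and 169 to 247 CPM in Het (3 of 6 higher). Olfactory or immature GABA-like nuclei went from 3.55% to 3.27%, with marker sums of 431 to 840 CPM in WT and 450 to 717 CPM in Het (4 of 6 higher). The 6 Chst9 markers summed to 337 to 482 CPM in WT and 387 to 446 CPM in Het (4 of 6 higher). The 6 oligodendrocyte markers summed to 405 to 2139 CPM in WT and 680 to 2051 CPM in Het (6 of 6 higher). The 7 astrocyte markers summed to 707 to 1067 CPM in WT and 789 to 1017 CPM in Het (7 of 7 higher), and the 6 microglia markers to 63.7 to 133 CPM in WT and 49.0 to 131 CPM in Het (0 of 6 higher). How much striatal tissue each dissection included was not recorded in the sources used here, and the part of these other cell types in the result was not tested. In sections of P21 brains, the study counted more neurons stained for DARPP-32 protein in the deep layer of the Het cortex. How that count relates to the shares of nuclei was not tested.

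Summed over all nuclei, the 9 members had higher fitted levels in Het than in WT, but none passed the test across genes. With edgeR's quasi-likelihood test, 0 of the 9 members were called (adjusted p under 0.05 and a log2 fold change over 0.2), and so were 0 of all 16651 tested genes (0%). At an unadjusted p under 0.05, 8 of 9 members were higher in Het, compared with 3.37% of all tested genes, and 994 genes in either direction had such a p. DESeq2 called 30 genes, among them 1 member, Rgs9 (adjusted p = 6.37e-05). Of the other members DESeq2 gave an adjusted p only for Pde10a (0.542) and Adcy5 (0.259), so it could not have called the rest. The median log2 fold change was 0.61 over the members and -0.0024 over all tested genes. In such sums, more nuclei of a type and more RNA per nucleus cannot be told apart.

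Rgs9 had 37.8 to 71.5 CPM in WT (median 49.8) and 74.6 to 88.2 CPM in Het (median 79.1). It was the only member in which every Het animal lay above every WT animal, which held for 0.402% of the tested genes. Its log2 fold change was 0.63 ± 0.11 (SE, adjusted p = 0.0980, edgeR), and without WT female 2, the WT animal with the highest Rgs9, it was 0.73 and passed the test (adjusted p = 0.00154, edgeR). Adora2a had 1.03 to 3.47 CPM in WT (median 1.75) and 2.36 to 4.62 CPM in Het (median 3.89), with all 6 Het animals above the WT median, and a log2 fold change of 1.00 ± 0.24 (adjusted p = 0.248, edgeR). Drd2 had 8.34 to 16.5 CPM in WT (median 10.3) and 12.9 to 21.7 CPM in Het (median 16.8), a log2 fold change of 0.66 ± 0.16 (adjusted p = 0.261, edgeR). The groups overlapped for Adora2a and Drd2.

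Drd1 had 2.52 to 5.28 CPM in WT (median 3.90) and 4.09 to 7.85 CPM in Het (median 5.97), and a log2 fold change of 0.61 ± 0.18 (adjusted p = 0.493, edgeR). Ppp1r1b had 1.77 to 3.16 CPM in WT (median 2.74) and 2.96 to 5.38 CPM in Het (median 3.98), and a log2 fold change of 0.61 ± 0.18 (adjusted p = 0.467, edgeR). For both genes all 6 Het animals were above the WT median and the lowest of them were within the WT range. Adcy5 (0.30 ± 0.10, adjusted p = 0.655) and Pde10a (0.18 ± 0.08, adjusted p = 0.801) had smaller fitted log2 fold changes (edgeR). Adcy5 had 38.1 to 72.2 CPM in WT (median 54.8) and 63.2 to 72.3 CPM in Het (median 69.1), and Pde10a had 1064 to 1398 CPM in WT (median 1191) and 1266 to 1499 CPM in Het (median 1409).

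For the peptides, 5 of 6 Het animals were above the WT median and the ranges overlapped widely. Penk had 3.21 to 6.22 CPM in WT (median 4.52) and 3.60 to 11.4 CPM in Het (median 5.96), a log2 fold change of 0.54 ± 0.25 (adjusted p = 0.835, edgeR). Tac1 had 3.11 to 4.30 CPM in WT (median 3.84) and 3.39 to 6.29 CPM in Het (median 4.69), a log2 fold change of 0.31 ± 0.16 (adjusted p = 0.866, edgeR). Penk also had the smallest p of the members for a sex by genotype interaction in all nuclei (unadjusted p = 0.00737, edgeR), with fitted log2 fold changes of -0.091 in males and 1.14 in females. Tac1 had an unadjusted p of 0.0205 (edgeR), with -0.051 in males and 0.66 in females, and 0 members and 0 genes were called for the interaction.

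**Figure D4:**
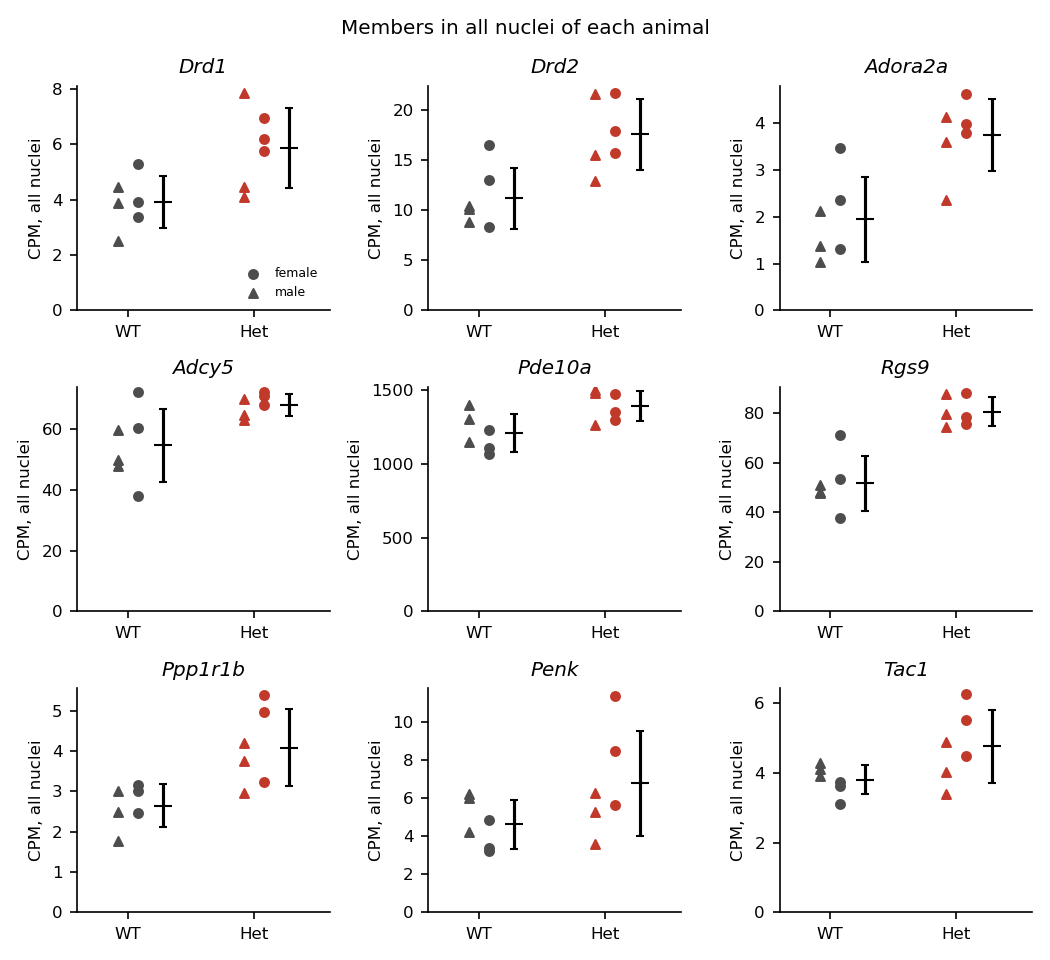
CPM of each member in all nuclei of an animal (linear axes from 0, 1 panel per gene), by genotype. Points are animals (circles female, triangles male), and bars are the mean and SD of 6 animals. Rgs9 is the only panel in which the 6 Het animals (74.6 to 88.2 CPM) lie above all WT animals (37.8 to 71.5 CPM).

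The difference in all nuclei was divided between the striatal clusters and the other nuclei by expressing the counts of each part as CPM of the whole animal. The striatal clusters held 82.4% of the Het minus WT difference for Rgs9, 87.2% for Ppp1r1b, 94.2% for Adora2a, 86.5% for Penk, 54.7% for Drd1 and 45.1% for Pde10a. For Adcy5, Drd2 and Tac1 the values were 104%, 114% and 133%, as the counts of the other nuclei made up fewer CPM of the whole animal in Het. As CPM of the other nuclei themselves, Adcy5 had a mean of 39.0 in WT and 39.2 in Het. Of the Drd1 difference of 1.98 CPM, 0.898 CPM lay outside the striatal clusters. Shares of a difference carry no test.

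As CPM of the striatal clusters themselves, the median difference of the members between genotypes was smaller. All 9 could be tested and 9 had higher fitted levels in Het, with a median log2 fold change of 0.21. The test called 0 of the 9 members and 0 of 4235 genes (0%, edgeR), while DESeq2 called 1 gene that is no member, and 242 genes had an unadjusted p under 0.05. An unadjusted p under 0.05 with a higher level in Het was found for 1 member, Adora2a, and for 2.67% of the genes. Adora2a had 28.8 to 61.8 CPM in WT (mean 42.4 ± 12.8) and 52.7 to 76.1 CPM in Het (mean 61.3 ± 8.16), overlapping, with a log2 fold change of 0.50 ± 0.20 (adjusted p = 0.833, edgeR). Cluster 34, with 137 CPM of Adora2a, went from 1.08% of nuclei in WT to 2.06% in Het. Cluster 35, with 0 CPM, went from 1.36% to 1.86%. The level over all striatal clusters also depends on this mix, whose part was not tested. Ppp1r1b had 25.2 to 52.2 CPM in WT (median 39.3) and 41.1 to 59.0 CPM in Het (median 46.9), with a log2 fold change of 0.31 ± 0.22 (adjusted p = 0.903, edgeR). The remaining 7 members lay between 0.16 for Penk and 0.36 for Tac1. Drd1 was 0.21 ± 0.26, and -0.054 without cluster 48, which took over 30% of its nuclei from 1 animal. In these clusters the 10 striatal markers outside the members had a Het over WT ratio of 1.08 (9 of 10 higher). The ratio was 0.70 for oligodendrocyte markers (1 of 6 higher) and 0.65 for DG markers (2 of 6). It was 1.01 for olfactory or immature GABA markers (3 of 6). The part of such differences in the members' levels was not tested.

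Inside the gate, 5 of the 7 members not used by it had enough counts for the test, since Ppp1r1b and Drd1 failed the filter on low counts. That filter keeps a gene that reaches a set level in any 6 animals, which the Het animals alone can supply. The direction of the members that it kept is therefore a description. Without that filter edgeR gave 0.79 ± 0.34 for Ppp1r1b (adjusted p = 0.608) and 0.048 ± 0.31 for Drd1 (adjusted p = 0.969) as the log2 fold change ± SE. That fit also gave higher values than the filtered one for the other members (0.56 against 0.39 for Drd2 and 0.44 against 0.27 for Adcy5), and the mean Drd1 level in CPM was lower in Het (47.5 in WT and 43.0 in Het). All 5 that passed it had higher fitted levels in Het (median 0.39) and 0 were called by edgeR or by DESeq2, with 2 at an unadjusted p under 0.05, as were 221 of 3076 genes (7.18%) in either direction. Of these genes, 6 (0.195%) were called, all lower in Het. Adora2a had 8.45 to 52.6 CPM in WT (median 34.6) and 45.2 to 74.7 CPM in Het (median 64.7), a log2 fold change of 0.84 ± 0.29 (adjusted p = 0.445, edgeR). Adcy5 had 484 to 625 CPM in WT (median 513) and 584 to 788 CPM in Het (median 629), a log2 fold change of 0.27 ± 0.12 (adjusted p = 0.630, edgeR). Drd2 (0.39 ± 0.21), Penk (0.50 ± 0.29) and Tac1 (0.38 ± 0.28) had unadjusted p values over 0.05. The levels of the 2 members that failed the filter were 6.72 to 42.2 CPM in WT and 37.4 to 64.3 CPM in Het for Ppp1r1b, and 31.6 to 80.9 CPM in WT and 27.8 to 84.0 CPM in Het for Drd1. Both overlapped between genotypes.

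Outside the gate, 6 of the 7 members had higher fitted levels in Het, with a median log2 fold change of 0.26, and 0 were called among 16534 genes (0%, edgeR, with 930 genes at an unadjusted p under 0.05). DESeq2 called 23 genes there and none of these 7. It gave an adjusted p only for Adcy5 among them (0.939, DESeq2), so it could not have called the others. The other fitted log2 fold changes were 0.31 ± 0.24 for Ppp1r1b, 0.59 ± 0.30 for Adora2a, 0.22 ± 0.27 for Penk, -0.031 ± 0.19 for Tac1 and 0.10 ± 0.10 for Adcy5. Drd1 had 2.09 to 4.51 CPM in WT (median 3.05) and 3.12 to 6.98 CPM in Het (median 4.75), all 6 Het animals above the WT median, and a log2 fold change of 0.61 ± 0.21 (unadjusted p = 0.00833, adjusted p = 0.713, edgeR). Since nuclei outside the gate included most nuclei of the striatal clusters, the fit was repeated on the nuclei outside those clusters. There 8 members were tested, 5 were higher in Het, the median was 0.15, and edgeR called 0 of 16467 genes (0%). Drd1 (0.47 ± 0.21, unadjusted p = 0.0354) and Rgs9 (0.31 ± 0.13, unadjusted p = 0.0321) were higher in Het at that unadjusted level, as were 3.05% of all genes, both with an adjusted p of 0.841 (edgeR). Drd2, with 1.57 to 4.37 CPM in WT (median 3.41) and 2.04 to 2.73 CPM in Het (median 2.20), had a log2 fold change of -0.46 ± 0.22 (adjusted p = 0.890, edgeR) against 0.26 ± 0.16 outside the gate, and 0 of 6 Het animals were above the WT median. Adcy5 was -0.0068 ± 0.10.

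**Figure D5:**
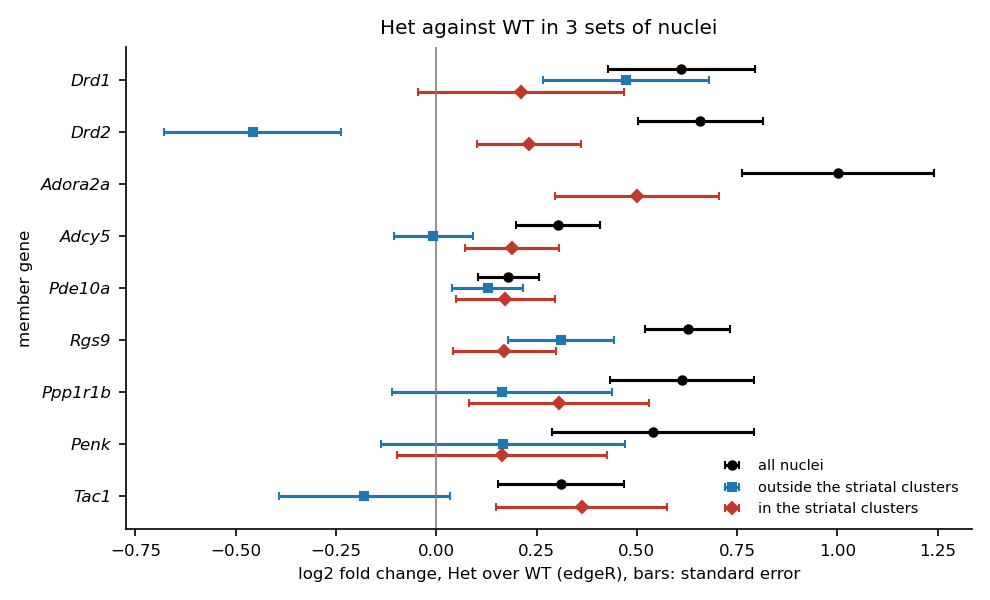
Log2 fold change of Het over WT from edgeR (x axis, linear; bars are the SE) for each member in all nuclei (black circles), outside the striatal clusters (blue squares) and in the striatal clusters (red diamonds). Adora2a had too few counts outside the striatal clusters for the fit. The fold changes in all nuclei are positive for all members, whereas outside the striatal clusters Drd2, Tac1 and Adcy5 are at or below 0.

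Among cortical neurons, 5 members could be tested in the 21166 excitatory nuclei, and 4 were higher in Het with 0 called by edgeR or DESeq2 (2 at an unadjusted p under 0.05, as were 7.93% of all genes in either direction). There 24 of 14021 genes were called (0.171%), 19 of them higher in Het. Pde10a had 1050 to 1404 CPM in WT (median 1168) and 1280 to 1477 CPM in Het (median 1384), a log2 fold change of 0.17 ± 0.07 (adjusted p = 0.531, edgeR). Over 17 alternatives this Pde10a value ran from 0.13 to 0.22, with an adjusted p from 0.0338 to 0.747 (edgeR or DESeq2). Rgs9 had 10.5 to 20.8 CPM in WT (median 15.9) and 18.2 to 26.7 CPM in Het (median 19.3), a log2 fold change of 0.29 ± 0.13 (adjusted p = 0.609, edgeR). Drd1 was 0.38 ± 0.24, Ppp1r1b 0.088 ± 0.27 and Adcy5 -0.021 ± 0.083. Drd2, Penk, Tac1 and Adora2a had too few counts for the test in excitatory nuclei, so the direction count leaves them out. Their Het over WT ratio of mean CPM, without a test, was 0.64 for Drd2, 0.71 for Penk, 0.55 for Tac1 (15 counts) and 1.13 for Adora2a. For Drd2, 0 of 6 Het animals were above the WT median, and the ranges overlapped. In L6 CT-like nuclei only Pde10a (0.13), Rgs9 (0.34) and Adcy5 (0.12) had enough counts, and 0 were called by edgeR or DESeq2, with 0 at an unadjusted p under 0.05, where 10.6% of 7878 genes had such a p and 0.889% were called. In interneurons, Pde10a (0.10), Rgs9 (0.23), Tac1 (-0.08) and Adcy5 (-0.04) were tested and 0 were called by edgeR or DESeq2, with 0 at an unadjusted p under 0.05, where 5.88% of 8827 genes had such a p and 0.0906% were called.

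Other genes of the pathway were read from a list of 44. Of these, 17 were highest in the striatal clusters among the 18 cell types and 28 had the striatal clusters among their top 3. In all nuclei 38 of the 44 were tested, 27 had higher fitted levels in Het, and 0 were called (edgeR), with 11 at an unadjusted p under 0.05 and a median log2 fold change of 0.07. Of all genes tested, 49.2% were higher in Het and 5.97% had such a p. Of 12 tested genes for other receptors and peptides of striatal neurons, 9 were higher in Het, as were 6 of 9 cyclases and phosphodiesterases, 5 of 6 G proteins and their regulators and 6 of 10 kinase and phosphatase parts. Of the 5 genes of dopamine receptors and terminals, Drd3 was tested and had a log2 fold change of 0.74 ± 0.51. Among those higher in Het were Rasgrp2, an activator of small GTPases (5.79 against 8.81 CPM, log2 fold change 0.56 ± 0.13, adjusted p = 0.229, edgeR), and the phosphodiesterase gene Pde7b (0.35 ± 0.08, adjusted p = 0.239, edgeR). Among those lower in Het, Adcy8 (-0.16 ± 0.07), Tacr3 (-0.30 ± 0.18) and Arpp19 (-0.12 ± 0.08) had the smallest p values. In the striatal clusters 26 were tested, 18 were higher in Het and 0 were called (3 at an unadjusted p under 0.05, edgeR), where 48.3% of all genes tested were higher in Het and 5.71% had such a p. There the striatal phosphatase gene Ptpn5 (0.28 ± 0.11) and Gnb5, the G protein subunit that binds Rgs9 (0.32 ± 0.14), were among those with higher fitted values in Het, and Prkar1b (-0.35 ± 0.23), Adcy2 (-0.31 ± 0.26) and Rgs7bp, the membrane anchor of Rgs9 (-0.12 ± 0.11), had the smallest p values among those with lower ones.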

How the data were processed

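Nuclei from the P21 cortex of 12 mice were measured. Reads had been aligned to mm10 by ScaleRna, and the authors deposited expected counts, UMIs per gene and nucleus that need not be whole because a UMI matching several genes is divided among them (92.5% to 92.9% of entries were whole). The values were not normalized by the authors, and the P21 animals were barcoded side by side on shared plates. The submitters' processing notes also name Seurat 4.3.0 and DESeq2 1.38.3.

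Of 78743 barcodes, 34860 met the study's limits (between 800 and 6000 UMIs and between 300 and 3000 genes per nucleus, a mitochondrial share of 1% or less, and log genes divided by log UMIs of 0.9 or more). The 5% with the highest Scrublet scores per animal (1744) were removed as likely doublets with scanpy 1.11.5, since the study's doublet rate was not given in the sources used here. Clustering used leidenalg 0.10.2, left out the 9 members and Myt1l, and gave 81 clusters, of which 35 stayed unnamed. Nuclei counted as holding a UMI had a value of at least 1. The study states more P21 nuclei than the barcodes in the files used here. TDTOMATO, the AAV transcript, did not enter library sizes or tests.

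Counts were summed per animal, rounded and tested for genotype with edgeR 4.0.16 (TMM, filterByExpr, robust quasi-likelihood), in R 4.3.3, with Benjamini-Hochberg adjustment over all genes tested in a comparison. DESeq2 1.42.0 was an alternative. It gave no adjusted p for some tested genes, which it could then not call. The edgeR step was checked on simulated counts. Shares of nuclei were compared by exact permutation tests over animals, and populations needed at least 10 nuclei per animal. Intervals and limits from counts of 0 cover counting error only. The labels name each sample as a replicate animal, and p-values measure the spread between these animals.

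The 9 members are given by name, or as a count and range, in the comparisons in which they could be tested. Of the other 44 pathway genes, the 3 with the smallest p in each direction are named, except 1 gene that is not reported here, and the 5 genes most alike by Pearson correlation over cell types. The members, the pathway list and the markers were chosen with earlier results of these data known. Alternatives covered the normalization, the filter on low counts, the gate, doublet removal, upper limits, cluster resolution, each animal left out, and a replicate block.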

Additional observations from a re-analysis of the deposited data

Results flagged for a closer look

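Within a genotype, 104 groups of 6 animals were examined for a single animal far from the others (Dixon's test on the gap to its nearest neighbour). There were 6 such groups, and chance alone gives about 1 in 20 groups. Outside the gate, Ppp1r1b was lowest in WT male 1 at 1.02 CPM. Inside the gate, Drd1 was highest in Het female 3 at 84.0 CPM and Adcy5 in Het male 3 at 788 CPM. In the striatal clusters, Tac1 was highest in Het female 3 at 61.7 CPM. In L6 CT-like nuclei, Adcy5 was highest in Het female 1 at 56.2 CPM, and in interneurons Pde10a was lowest in Het female 3 at 1331 CPM.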

How the results depend on the processing

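The share of striatal-type nuclei was higher in Het under all 20 alternatives run (0.507 to 1.73 percentage points) and that of the striatal clusters under all 16 (1.57 to 2.21 points), with adjusted p from 0.00866 to 0.0625. The highest p came from the replicate block (1.22 and 1.92 points, adjusted p = 0.0625 for both), where 6 pairs cannot go below an unadjusted 0.03125. Same-numbered animals were not alike, as 0 of 6 pairs had a correlation above 0.1 (-0.36 to 0.04). In 1 of 6 cases an animal correlated best with its own number. With 6 pairs this does not settle whether the animals were paired. The study drew its P21 animals from several litters, which the labels do not name, so litter was not modelled. Under the block 0 members were called. In all nuclei, 1 member was called by DESeq2 (Rgs9), which gave an adjusted p only for Rgs9, Pde10a and Adcy5. Without the filter on low counts 2 were called (Rgs9 and Adora2a). Leaving out 1 animal gave 0 to 1 members, the 1 being Rgs9 without WT female 2. Genes called by edgeR, by DESeq2 and without the filter were 0, 30 and 28 in all nuclei, 0, 23 and 16 outside the gate, 6, 7 and 42 inside it, 0, 1 and 10 in the striatal clusters, 24, 77 and 167 in excitatory nuclei, 70, 83 and 115 in L6 CT-like nuclei and 8, 17 and 18 in interneurons.

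Some fitted log2 fold changes that had missed the threshold changed sign. Outside the gate, Drd2 became -0.46 and Adcy5 -0.0068 when the striatal clusters replaced the gate, Penk became -0.038 without upper limits on nuclei, and Tac1 became 0.042 with a stricter gate and 0.23 without upper limits. Drd1 in the striatal clusters became -0.054 without the cluster that took over 30% of its nuclei from 1 animal. With 1 animal left out, Tac1 outside the gate ran from -0.13 to 0.049, Ppp1r1b and Adcy5 in excitatory nuclei from -0.12 to 0.20 and from -0.062 to 0.039, Adcy5 in L6 CT-like nuclei from -0.025 to 0.18, Tac1 and Adcy5 in interneurons from -0.27 to 0.038 and from -0.17 to 0.032, and the L6 CT-like share from -0.0195 to 0.648 points. Ppp1r1b in D2-only minus D1-only nuclei became 0.0063 without upper limits and 0.21 in the striatal clusters. The cause was not tested in these cases. The D2-only share could not be tested after thinning, when 5 animals had at least 10 nuclei of either side. At this depth, Ppp1r1b and Drd1 failed the low-count filter inside the gate.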
